A study of Mus musculus with 6 samples.

Results

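Axon guidance ligands and their receptors were followed in cultured cells of the embryonic mouse cortex after knockdown of Ybx1, an RNA-binding protein with a Y-box (cold shock) domain. The genes were chosen by symbol, as every listed class 3 to 7 semaphorin, A to D plexin, neuropilin, Eph receptor, A- or B-type ephrin, Robo, Slit, Unc5 receptor and netrin, together with Dcc. This gave 69 of the 17920 genes listed, 35 of them ligands and 34 receptors, in 9 families. They comprised 20 semaphorins, 9 plexins, 2 neuropilins, 8 ephrins, 14 Eph receptors, 3 Slits, 4 Robos, 4 netrins and 5 Unc5 and Dcc receptors.

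RNA-seq was done on 3 control libraries (WT, called Ctrl in the data columns) and 3 Ybx1 knockdown libraries (KD) of the E13.5 cortex, E13.5 being the embryonic day. By the methods of the study, both groups were dissociated cortical cells in culture that had been infected with shRNA lentivirus and selected with puromycin, which kills cells without the virus; KD cells carried a hairpin against Ybx1 and WT cells a control shRNA. The sample labels give a WT or KD genotype and the series text speaks of deletion, and neither names the hairpin, the strain, the sex or the number of embryos behind a library. A library is a mixture of every cell type in the culture, so fewer cells of a type and less RNA per cell cannot be told apart. The replicates were independent experiments by the methods.

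Guidance ligands are secreted or displayed at the cell surface and tell growing axons and migrating neurons where to go. Semaphorins bind plexins, for which most class 3 members use a neuropilin as co-receptor. Ephrins bind Eph receptor tyrosine kinases and can signal back into the cell that carries them. Slits bind Robos, and netrins bind Dcc and the Unc5 receptors. In the developing cortex these families steer callosal, corticofugal and thalamocortical axons, and several also act in progenitors and migrating neurons.

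The 6 libraries held 16294635 to 16497505 estimated counts, a nearly equal depth. Ybx1 was at 618, 615 and 653 CPM in WT replicates 1, 2 and 3 and at 98.3, 92.2 and 159 CPM in KD replicates 1, 2 and 3, and KD libraries kept between 14.7% and 25.3% of the WT mean. Neuron markers were abundant in every library: 7 of 7 were tested, with a summed level of 5641 to 6160 CPM in WT and 5328 to 6093 CPM in KD, and Dcx rose while Stmn2 fell. Radial glia markers summed to 1392 to 1529 CPM in WT and 1467 to 1678 CPM in KD, and 2 of 8, Pax6 and Hes1, rose. Intermediate progenitor markers moved with the groups: 4 of 5 rose (Eomes, Neurog2, Insm1 and Neurod1) and their sum was 57.2 to 75.9 CPM in WT and 138 to 166 CPM in KD. GABAergic markers were present at 644 to 984 CPM in WT and 672 to 1010.0 CPM in KD, and 1 of 6, Dlx2, rose. Of the Cajal-Retzius markers, 0 of 4 passed by edgeR without the block, DESeq2 or limma-voom, 1 had an unadjusted edgeR p under 0.05 and 2 fell with the block, with sums of 410 to 507 CPM in WT and 375 to 456 CPM in KD. Olig1, 1 of 5 glial markers, fell. By the same test 12.0% of all genes tested were higher and 11.9% lower. With the replicate block, 4 of 8 radial glia and 5 of 5 intermediate progenitor markers rose. Of the GABAergic markers, 2 rose and 1 fell with it, and 2 glial markers fell. The neuron counts stayed at 1 rise and 1 fall. Under the block 18.6% of all genes were higher and 18.1% lower. Microglia and fibroblast markers summed to at most 2.43 and 5.54 CPM. CPM here is the normalised count on a scale of 1000000 per library after TMM scaling, and the part of these shifts in cell type markers in the results below was not tested.

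Most of the guidance genes were expressed. In WT, 62 of 69 had a mean of at least 1 TPM (a level corrected for transcript length, which sums to 1000000 per library) and 17 reached 50 TPM. Efnb3 was the most abundant at 224 ± 19.4 TPM. It was followed by Efnb2 at 108 ± 6.18 TPM, Plxna1 at 100.1 ± 7.76 TPM and Efna3 at 97.5 ± 9.58 TPM, and the means of Plxna1 and Efna3 lay closer to each other than either SD. In each of the other families the leading member in WT was Epha5 (78.0 ± 3.30 TPM) among Eph receptors, Sema4g (77.2 ± 4.89 TPM) among semaphorins, Nrp2 (48.5 ± 12.3 TPM) among neuropilins, Robo1 (63.4 ± 7.15 TPM) among Robos, Slit1 (50.3 ± 5.80 TPM) among Slits, Unc5a (40.6 ± 3.14 TPM) among Unc5 and Dcc receptors and Ntn1 (12.1 ± 2.62 TPM) among netrins. The lead of Robo1 over Robo2 (59.3 ± 13.2 TPM) and of Ntn1 over Ntn4 (11.3 ± 2.08 TPM) was smaller than the SD, and Robo2 was the higher in 2 of 3 WT libraries. The ligands summed to 1162 ± 45.7 TPM and the receptors to 1085 ± 48.7 TPM. The 5 genes too low to be tested were Epha1 (at most 2 counts in any library), Epha2 (3 to 14 counts), Robo4 (0 or 1 count), Ntn5 (0 or 1 count) and Sema3g (0 to 4 counts).

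After Ybx1 KD, 15 of the 64 tested guidance genes were higher and 7 were lower at an adjusted p of 0.05 (edgeR quasi-likelihood test, adjusted over the 13669 genes tested). That is 23.4% higher, where 12.0% of all genes tested were higher, and 10.9% lower, where the background was 11.9%. The genes that rose were Epha3, Epha4, Ephb3, Ephb4, Efnb1, Efnb2, Nrp1, Plxna2, Plxna4, Sema4f, Sema5a, Sema5b, Robo1, Slit1 and Slit2. Those that fell were Epha8, Epha10, Efna3, Efnb3, Plxna1, Sema6b and Unc5a. Each of the 22 changed the same way in all 3 same-numbered pairs of libraries, and with no overlap between the groups. The 22 were called on these same libraries, so this agreement largely follows from the call and is not separate support. Over the 64 genes, the KD libraries lay above all WT libraries in 19 and below in 10, where the background was 21.0% and 20.6%.

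The guidance genes were more abundant than the average gene, with a median of 58.6 CPM against 31.0 CPM over all genes tested. Among genes with a mean of at least 10 CPM, 14 were higher and 7 lower of 54, which is 25.9% and 13.0% where the backgrounds were 14.6% and 14.3%. The median log2 fold change was 0.09 over the 64 genes and 0.00 over all genes. Changes were modest in size: 4 of the 22, Epha4, Epha3, Ephb4 and Nrp1, passed a 1.5-fold change, all of them upward. Of all genes called, 538 of 3277 passed it in either direction. As a share of the 64 tested the 4 were 6.25%, where 2.15% of all genes tested passed upward and 1.79% downward. On deposited TPM values, which moved the median of all genes by about 0.05 on the log2 scale, the split of calls was 15 higher and 4 lower, where 15.2% and 7.84% of all genes were called. At an adjusted p of 0.01 there were 6 higher and 2 lower, where the background was 4.60% and 4.64%.

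The replicate numbers pair the libraries, and with that number as a block the model called 25 guidance genes higher (background 18.6%) and 14 lower (background 18.1%). It kept all 22 calls and added 17. The number of calls depended on single libraries. Without KD replicate 1 there were 12 higher and 2 lower (background 7.96% and 7.81%), and without WT replicate 3 there were 16 and 4 (background 11.7% and 11.5%). Without WT replicate 2 or without KD replicate 2 there were 6 higher and 3 lower, where the background was 5.65% and 5.78% in the first case and 6.40% and 6.15% in the second. Without both replicate 2 libraries, an alternative chosen after the data were seen, 2 were higher (Epha3 and Plxna2) and 0 were lower by edgeR. In that fit 0.985% and 0.678% of all genes were called. At an unadjusted p of 0.05 the guidance counts were 13 and 8. The share of all genes at that unadjusted threshold was not computed, so these counts have no background here.

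**Figure D1:**
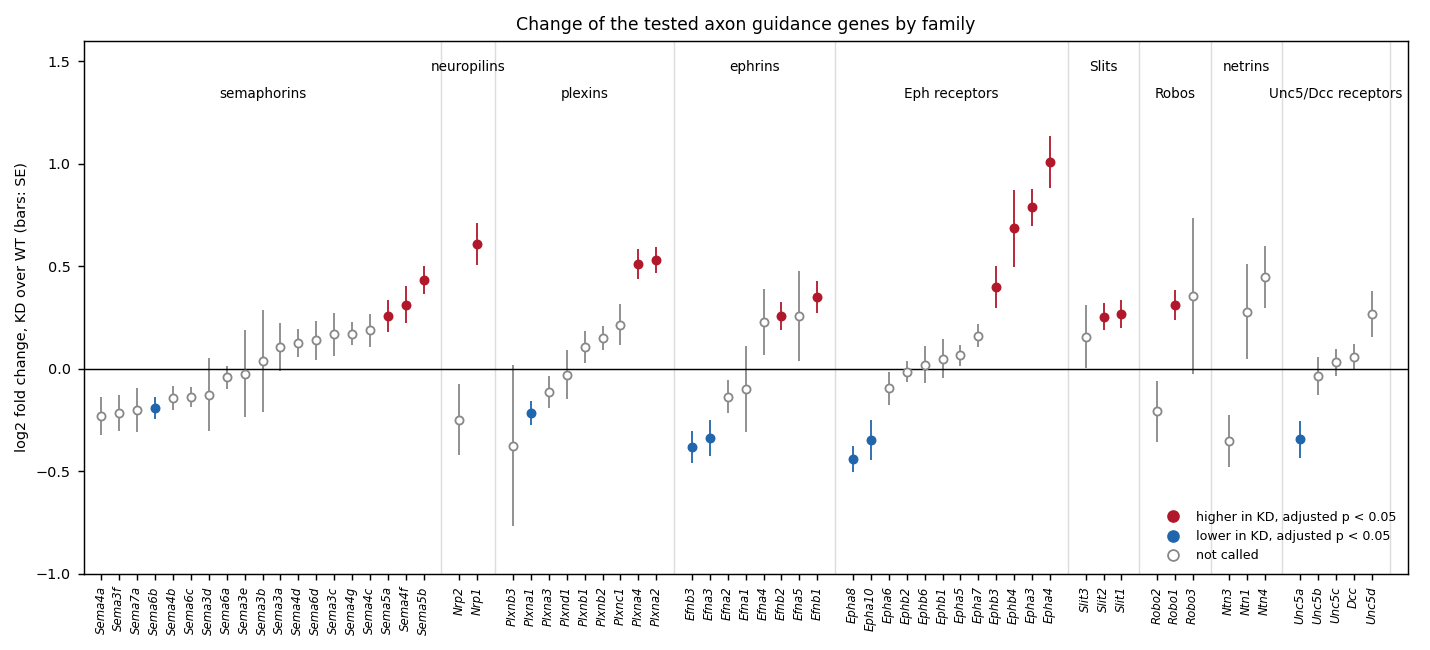
Log2 fold change (KD over WT, vertical axis) of each of the 64 tested guidance genes, grouped by family along the horizontal axis, with bars of 1 SE. Red points are the 15 genes called higher, blue points the 7 called lower and open points those not called; Epha4 at 1.01 and Epha3 at 0.79 lie farthest above 0 and Epha8 at -0.44 lies lowest.

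**Figure D2:**
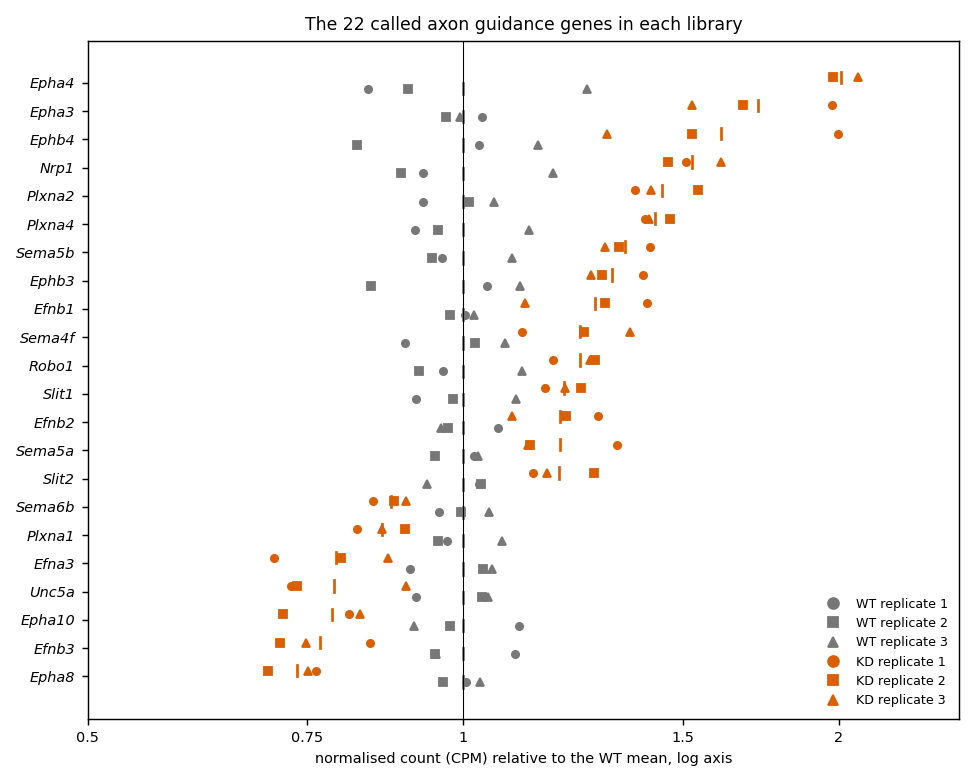
Normalised count (CPM) of the 22 called guidance genes in each library, divided by the WT mean of that gene, on a log axis, with genes ordered by log2 fold change. Grey symbols are WT and orange symbols KD, the shape gives the replicate number and short lines mark group means. In every row the grey and orange symbols do not overlap, which largely follows from calling the genes on these libraries.

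Eph receptors showed the widest span of change of any family, from -0.44 for Epha8 to 1.01 for Epha4 on the log2 scale. Of 12 tested, 4 rose and 2 fell, or 33.3% and 16.7%, where the background was 12.0% and 11.9%. Epha4 binds both A- and B-type ephrins and is known for corticospinal and motor axon guidance. Epha4 (Entrez Gene 13838, chr1:77367182-77515107) was at 49.1, 52.9 and 73.7 CPM in WT replicates 1, 2 and 3 and at 116, 116 and 121 CPM in KD replicates 1, 2 and 3. Every KD library was above every WT library, and WT replicate 3 was the highest of its group. The log2 fold change was 1.01 ± 0.13 (SE; adjusted p = 0.00139), which is 2.01-fold. Epha3, a receptor for A-type ephrins, (Entrez Gene 13837, chr16:63543532-63864175) was at 51.1, 47.8 and 49.1 CPM in WT and 97.4, 82.7 and 75.2 CPM in KD. The WT libraries lay close together and the KD libraries were 1.73-fold higher on average, and its log2 fold change was 0.79 ± 0.09 (SE; adjusted p = 9.0e-04). In TPM, Epha3 and Epha4 together went from 37.5 ± 4.69 to 72.7 ± 4.31, a pair picked after their values were seen. The other 7 EphA receptors, which include Epha8 and Epha10 that fell, summed to 159 ± 6.02 in WT and 165 ± 6.90 in KD.

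Both receptors that fell were of the A type. Epha8 (Entrez Gene 13842, chr4:136929419-136956859) was at 41.0, 39.3 and 42.0 CPM in WT and 31.1, 28.4 and 30.6 CPM in KD, and its log2 fold change was -0.44 ± 0.06 (SE; adjusted p = 0.00207). Its KD libraries lay close together, all below WT. Epha10, which lacks an active kinase, (Entrez Gene 230735, chr4:124881530-124917801) was at 26.9, 23.8 and 22.2 CPM in WT and 19.7, 17.4 and 20.1 CPM in KD. The lowest WT library lay just above the highest KD library, and the log2 fold change was -0.35 ± 0.10 (SE; adjusted p = 0.0306). Its exons overlap those of 1700125G02Rik on the opposite strand, so its value is less certain. Of its 6 estimated counts 2 were fractional, at 443.93 in WT replicate 1 and 385.02 in WT replicate 2, both close to whole numbers. Epha8 and Epha4 moved in opposite directions within one subfamily.

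Of the 5 B-type receptors tested, Ephb3 and Ephb4 rose and no member fell, where 12.0% of all genes tested were higher and 11.9% lower. Ephb3 (Entrez Gene 13845, chr16:21204620-21223309) was at 22.9, 18.5 and 24.4 CPM in WT and 30.6, 28.4 and 27.8 CPM in KD, and its log2 fold change was 0.40 ± 0.10 (SE; adjusted p = 0.0242). Ephb4, best known from veins, (Entrez Gene 13846, chr5:137350109-137374522) was at 5.64, 4.51 and 6.29 CPM in WT and 10.9, 8.36 and 7.15 CPM in KD, and its log2 fold change was 0.69 ± 0.19 (SE; adjusted p = 0.0301). KD replicate 3 lay nearest to WT for both genes, and Ephb4 was among the least abundant genes called. Ephb4 shares exon sequence with Zan on the opposite strand. Endothelial and mural markers summed to 6.91 to 9.22 CPM in WT and 10.1 to 12.6 CPM in KD; 1 of the 3 tested of 7, the mural gene Pdgfrb, rose, the endothelial genes Pecam1 and Kdr were detected in every library at 9 to 18 and 8 to 33 counts and did not pass, and Cdh5, Cldn5 and Tie1 were at 0 or 1 count, and the part of these cells in Ephb4 was not tested. Epha5 had 216 ± 6.01 CPM in WT and 226 ± 12.2 CPM in KD and did not pass (adjusted p = 0.405). Ephb1 had 70.8 ± 9.43 CPM in WT and 73.2 ± 5.34 CPM in KD and did not pass (adjusted p = 0.746). Ephb2 had 191 ± 8.71 CPM in WT and 189.5 ± 7.39 CPM in KD and did not pass (adjusted p = 0.874). For Epha5, Ephb1 and Ephb2 in turn, approximate 95% intervals of the log2 fold change, which are too narrow, ran from -0.04 to 0.17, from -0.14 to 0.24 and from -0.12 to 0.09. Epha7, with 104 ± 4.201 CPM in WT and 116 ± 6.43 CPM in KD, missed the threshold (adjusted p = 0.0723) and passed with the replicate block (adjusted p = 0.0377). Epha6 and Ephb6 were at -0.10 and 0.02 on the log2 scale.

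Leaving out single libraries, Epha3, Epha4 and Epha8 kept their calls. Ephb3 lost its call without KD replicate 1 or either replicate 2 library, Ephb4 without any of these or WT replicate 1, and Epha10 without WT replicate 1 or 2 or KD replicate 1 or 2. The log2 fold changes then lay between 0.29 and 0.48 for Ephb3, between 0.50 and 0.82 for Ephb4 and between -0.41 and -0.27 for Epha10. Epha7 gained a call without KD replicate 1, at 0.21.

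The start regions of the Eph receptors with the 2 largest rises and the largest fall are printed here because they show what sequence lies before a gene that rose or fell. Each runs from 250 bases before to 50 bases after the start (RefSeq, GRCm38.p6, all on the minus strand, read 5′ to 3′), and capitals mark ATTGG, which with its complement CCAAT is the core of the Y-box, the promoter motif that gave Y-box proteins their name.
Epha4, chr1:77515039-77515338: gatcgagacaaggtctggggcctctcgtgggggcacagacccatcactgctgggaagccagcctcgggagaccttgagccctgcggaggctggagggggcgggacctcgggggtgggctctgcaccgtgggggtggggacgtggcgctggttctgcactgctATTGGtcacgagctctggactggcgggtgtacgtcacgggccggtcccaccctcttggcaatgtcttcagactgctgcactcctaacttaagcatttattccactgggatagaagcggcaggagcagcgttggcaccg
Epha3, chr16:63864126-63864425: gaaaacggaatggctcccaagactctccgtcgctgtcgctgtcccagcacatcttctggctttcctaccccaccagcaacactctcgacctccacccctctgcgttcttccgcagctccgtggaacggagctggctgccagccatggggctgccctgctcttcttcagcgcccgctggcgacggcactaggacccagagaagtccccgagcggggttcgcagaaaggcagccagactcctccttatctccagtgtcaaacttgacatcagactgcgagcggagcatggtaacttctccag
Epha8, chr4:136956767-136957066: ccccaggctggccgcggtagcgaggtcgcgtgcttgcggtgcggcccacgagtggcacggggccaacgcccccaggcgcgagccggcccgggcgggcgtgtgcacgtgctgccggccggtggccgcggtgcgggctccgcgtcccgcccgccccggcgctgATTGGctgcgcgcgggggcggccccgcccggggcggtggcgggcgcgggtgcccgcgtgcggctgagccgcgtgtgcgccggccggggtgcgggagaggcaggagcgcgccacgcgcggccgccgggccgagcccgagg
Epha4, which rose, and Epha8, which fell, each had 1 match, 88 and 89 bases before the start, and Epha3 had none. The Epha8 region was 84.3% G and C, the Epha4 region 64.0% and the Epha3 region 60.7%. ATTGG or CCAAT, searched on both strands, was in 28.0% of 75 start regions of 59 guidance genes and in 37.4% of 32851 regions of all genes. It was in 5 of 13 regions of genes that rose, 4 of 7 of genes that fell, which belong to 5 genes, and 11 of 50 of genes tested and not called. The guidance genes' regions had a median G and C content of 64.3%, where all regions had 52.7%. These are matches of letters and not sites of binding.

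Among the ephrins, the ligands of the Eph receptors, the B type divided: Efnb1 and Efnb2 rose and Efnb3 fell. Ephrin-B proteins span the membrane and can signal into their own cell, whereas ephrin-A proteins are anchored by a lipid. Efnb1 (Entrez Gene 13641, chrX:99136061-99149022) was at 76.3, 74.2 and 77.7 CPM in WT and 107, 98.8 and 85.2 CPM in KD. Its WT libraries lay close together and KD replicate 3 was the nearest KD library to them, and its log2 fold change was 0.35 ± 0.08 (SE; adjusted p = 0.0145). Efnb2 went from 245 ± 14.1 CPM in WT to 293 ± 23.2 CPM in KD, and its log2 fold change was 0.26 ± 0.07 (SE; adjusted p = 0.0253). Efnb3 (Entrez Gene 13643, chr11:69554092-69561150), the most abundant guidance gene in WT by TPM, was at 362, 312 and 313 CPM in WT and 277, 235 and 246 CPM in KD. All KD libraries were below all WT libraries although WT replicate 1 and KD replicate 1 were each the highest of their group, and the log2 fold change was -0.38 ± 0.08 (SE; adjusted p = 0.00974). With rises and falls in the same subfamily, the summed ephrin-B level was 381 ± 26.0 TPM in WT and 376 ± 33.9 TPM in KD. Efnb1 and Efnb2 together added 41.4 TPM, while the other 6 ephrins together lost TPM, with a difference of -63.5; this pair too was picked after its values were seen, and the rest holds Efnb3 and Efna3, which fell.

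Of the A-type ephrins, 1 of 5 fell, where 11.9% of all genes tested were lower. Efna3 (Entrez Gene 13638, chr3:89313899-89322939) was at 62.9, 72.0 and 73.3 CPM in WT and 48.9, 55.4 and 60.4 CPM in KD, and its log2 fold change was -0.34 ± 0.09 (SE; adjusted p = 0.0247). The highest KD library, replicate 3, was below the lowest WT library, replicate 1. Efna3 shares exon sequence with the antisense gene Gm15998. Efna2, with 31.0 ± 2.003 CPM in WT and 28.2 ± 2.41 CPM in KD, did not pass (adjusted p = 0.256). Efna5, with 13.4 ± 3.36 CPM in WT and 16.1 ± 4.34 CPM in KD, did not pass without the block (adjusted p = 0.427) and was higher with it (adjusted p = 0.0388), where each pair rose while the groups overlapped. Efna1 and Efna4 were at 2.03 and 5.57 CPM in WT and did not pass. The summed ephrin-A level was 148 ± 11.4 TPM in WT and 131 ± 5.81 TPM in KD.

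Efnb3 kept its call without any single library. Efnb1 lost its call without WT replicate 2 or KD replicate 2, Efnb2 without WT replicate 2 or 3 or KD replicate 1 or 2, and Efna3 without the same 4 libraries as Efnb2. Their log2 fold changes then lay between 0.28 and 0.44 for Efnb1, between 0.21 and 0.32 for Efnb2 and between -0.41 and -0.26 for Efna3.

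Among semaphorin receptors, Nrp1, Plxna2 and Plxna4 rose and Plxna1 fell. That is 1 rise among 2 neuropilins, and 2 rises and 1 fall among 9 plexins, or 22.2% and 11.1%. The background was 12.0% and 11.9%, so the share of plexin falls lay near it. Neuropilin 1 is the binding partner for Sema3a, and A-type plexins carry the signal inward. Nrp1 (Entrez Gene 18186, chr8:128358591-128505476) was at 27.4, 26.3 and 34.8 CPM in WT and 44.5, 43.1 and 47.5 CPM in KD. The groups did not overlap, with WT replicate 3 the nearest to KD, and the log2 fold change was 0.61 ± 0.10 (SE; adjusted p = 0.00426). Nrp2, the partner of Sema3f, was at 184, 124 and 118 CPM in WT and 145, 109 and 106 CPM in KD. The WT libraries spread wider than the groups differed, and replicate 1 was the highest in both groups. It did not pass without the block and was lower with it (adjusted p = 0.00273), and its log2 fold change was -0.25 ± 0.17 (SE; adjusted p = 0.329) without it. The summed neuropilin level was 58.9 ± 11.6 TPM in WT and 59.0 ± 8.18 TPM in KD.

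Plxna2 (Entrez Gene 18845, chr1:194619791-194816869) was at 446, 485 and 508 CPM in WT and 659, 740.0 and 678 CPM in KD, and its log2 fold change was 0.53 ± 0.06 (SE; adjusted p = 0.00104). Plxna4 (Entrez Gene 243743, chr6:32144543-32588192) was at 188, 196 and 232 CPM in WT and 287, 301 and 289 CPM in KD, and its log2 fold change was 0.51 ± 0.08 (SE; adjusted p = 0.0024). In both genes the lowest KD library exceeded the highest WT library by more than the WT libraries differed among themselves. Plxna1, which went from 439.8 ± 28.7 CPM in WT to 378 ± 16.7 CPM in KD, fell, and its log2 fold change was -0.22 ± 0.06 (SE; adjusted p = 0.0276). Plxna4 overlaps the antisense gene Plxna4os3 and Plxna1 the antisense gene Gm26811, and Mir1903 lies in Nrp1 exon sequence. In TPM, Plxna2 and Plxna4 together went from 122 ± 10.4 to 181 ± 10.8, a pair again picked after their values were seen. The other 7 plexins, which include Plxna1 that fell, summed to 383 ± 32.2 in WT and 393 ± 13.53 in KD.

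Plxnb2 and Plxnc1 did not pass without the block (adjusted p = 0.0887 and 0.151) and were higher with it (adjusted p = 0.0377 and 0.0139). Plxnb2 had 171 ± 11.1 CPM in WT and 190.0 ± 6.63 CPM in KD and Plxnc1 had 177 ± 26.4 CPM in WT and 206 ± 13.3 CPM in KD. Plxnd1, with 269 ± 41.2 CPM in WT and 264 ± 34.2 CPM in KD, did not pass (adjusted p = 0.886). Its log2 fold change had an approximate 95% interval, which is too narrow, from -0.26 to 0.21. Plxna3, Plxnb1 and Plxnb3 did not pass, with log2 fold changes of -0.12, 0.11 and -0.37, the last at under 1 CPM. Nrp1, Plxna2 and Plxna4 kept their calls without any single library. Plxna1 lost its call without KD replicate 1 or either replicate 3 library (log2 fold change between -0.25 and -0.16), and Plxnb1 and Plxnb2 gained one without WT replicate 3, both at 0.21.

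Of the 19 semaphorins tested, 3 rose and 1 fell, or 15.8% and 5.3%, where 12.0% and 11.9% of all genes did, so the share of rises lay near the background. Class 3 semaphorins are secreted, and most bind neuropilins. None of the 6 tested passed by edgeR without the block, DESeq2 or limma-voom, with 1 lower at an unadjusted p of 0.05 in edgeR. Sema3a, a repellent for cortical axons, was at 56.1, 45.7 and 57.0 CPM in WT and 67.0, 52.1 and 51.7 CPM in KD. Its groups overlapped, with KD replicates 2 and 3 inside the WT range, and the log2 fold change was 0.11 ± 0.12 (SE; adjusted p = 0.549). Sema3c did not pass either, with 22.2 ± 3.21 CPM in WT and 24.9 ± 1.27 CPM in KD and an adjusted p of 0.28. Sema3f, with 41.6 ± 3.32 CPM in WT and 35.8 ± 3.40 CPM in KD, missed the threshold (adjusted p = 0.0998) and was lower with the block (adjusted p = 0.0133). Sema3b, Sema3d and Sema3e were at 1.44 to 5.36 CPM in WT and did not pass. Nrp1 and both Plxna2 and Plxna4 were called and the ligand Sema3a was not, and the difference between these genes was not tested.

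Both class 5 semaphorins, transmembrane ligands with thrombospondin repeats, rose, where 12.0% of all genes tested were higher. Sema5b (Entrez Gene 20357, chr16:35541154-35664261) was at 76.2, 74.9 and 86.8 CPM in WT and 112, 106 and 103 CPM in KD, and its log2 fold change was 0.43 ± 0.07 (SE; adjusted p = 0.00317). Sema5a went from 38.6 ± 1.66 CPM in WT to 46.1 ± 4.42 CPM in KD, and its log2 fold change was 0.26 ± 0.08 (SE; adjusted p = 0.04). The summed class 5 level was 44.4 ± 4.14 TPM in WT and 61.0 ± 3.84 TPM in KD. Its KD libraries were all above the WT libraries, which follows from the calls of both genes and is not separate support.

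Among class 4 and 6 semaphorins, also membrane-bound, Sema4f rose and Sema6b fell. Sema4f (Entrez Gene 20355, chr6:82911884-82939769) was at 37.3, 42.4 and 44.8 CPM in WT and 46.3, 51.9 and 56.4 CPM in KD. KD replicate 1 was just above WT replicate 3, while the log2 ratios within pairs were 0.31, 0.29 and 0.33, and the log2 fold change was 0.31 ± 0.09 (SE; adjusted p = 0.0368). Sema6b, a ligand of A-type plexins, went from 113 ± 5.199 CPM in WT to 99.2 ± 2.99 CPM in KD, and its log2 fold change was -0.19 ± 0.05 (SE; adjusted p = 0.0309). Sema6a, with 84.9 ± 2.60 CPM in WT and 82.4 ± 4.02 CPM in KD, did not pass (adjusted p = 0.609).

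The replicate block changed the call of 5 further membrane-spanning semaphorins and of Sema7a, which is anchored by a lipid. With it Sema4c (adjusted p = 0.0239), Sema4g (0.0105) and Sema6d (0.0476) were higher, and Sema4a (0.0132), Sema6c (0.0425) and Sema7a (0.0212) were lower. Without it their adjusted p values were 0.127, 0.055, 0.326, 0.0996, 0.0674 and 0.206 in that order, and their log2 fold changes lay between -0.23 for Sema4a and 0.19 for Sema4c. Sema4b and Sema4d passed in neither fit. Sema5b kept its call without any single library. Sema4f lost its call without WT replicate 1 or 2 or KD replicate 2 or 3 (0.24 to 0.38), Sema5a without any library but KD replicate 3 (0.18 to 0.30), and Sema6b without any but WT replicate 1 and KD replicate 3 (-0.22 to -0.16). Sema4c and Sema4g gained calls without WT replicate 3, at 0.27 and 0.21.

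Slit1, Slit2 and Robo1 rose. That is 2 of 3 Slits and 1 of 3 Robos tested, where 12.0% of all genes tested were higher. Slits are secreted repellents that keep commissural and cortical axons from crossing into the wrong territory. Slit1 was at 145, 155 and 174 CPM in WT and 184, 196 and 191 CPM in KD. The highest WT library, replicate 3, was below the lowest KD library, replicate 1, and the log2 fold change was 0.27 ± 0.07 (SE; adjusted p = 0.0227). Slit2 went from 40.1 ± 2.21 CPM in WT to 47.9 ± 2.85 CPM in KD, and its log2 fold change was 0.25 ± 0.07 (SE; adjusted p = 0.0261). Slit3, with 9.32 ± 0.831 CPM in WT and 10.4 ± 1.98 CPM in KD, did not pass (adjusted p = 0.497). The summed Slit level was 62.4 ± 5.81 TPM in WT and 77.1 ± 3.08 TPM in KD.

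The Slit receptor Robo1 (Entrez Gene 19876, chr16:72027518-73047491) was at 234, 224 and 271 CPM in WT and 287, 309.9 and 307 CPM in KD. KD libraries were above all WT libraries, with WT replicate 3 nearest, and the log2 fold change was 0.31 ± 0.07 (SE; adjusted p = 0.016). Robo2, the other abundant Slit receptor, was at 304, 261 and 190.2 CPM in WT and 242, 218 and 195 CPM in KD. WT replicate 3 was the lowest of all 6 libraries and replicate 1 was the highest in both groups. Its log2 fold change was -0.21 ± 0.15 (SE; adjusted p = 0.345), and with the replicate block it was called lower (adjusted p = 0.0255). Robo3 was at 1.23 CPM in WT and did not pass. Robo1 lost its call without WT replicate 2 (0.26) or KD replicate 2 (0.29), Slit1 without WT replicate 1 or 2 or KD replicate 2 or 3 (0.21 to 0.35 over all 6), and Slit2 without WT replicate 2 or 3 or KD replicate 2 (0.21 to 0.29). Without WT replicate 3, Robo2 was called lower, at -0.37.

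In the netrin system the receptor Unc5a fell, and neither Ntn1 nor Dcc passed. Netrin 1 attracts commissural axons through Dcc and repels through the Unc5 receptors. Dcc was at 82.8, 86.2 and 79.7 CPM in WT and 91.1, 87.7 and 80.2 CPM in KD. The groups overlapped, KD replicate 3 being inside the WT range, and the log2 fold change was 0.06 ± 0.06 (SE, adjusted p = 0.522). Its approximate 95% interval, which is too narrow, ran from -0.06 to 0.18. Ntn1 was at 41.3, 27.8 and 30.4 CPM in WT and 56.8, 31.4 and 32.2 CPM in KD. KD replicate 1 was far above the other 5 libraries, and the other 2 KD libraries were inside the WT range. Its log2 fold change was 0.28 ± 0.23 (SE; adjusted p = 0.419) without the block and was called higher with it (adjusted p = 0.0157), and without KD replicate 1 it was -0.06.

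Unc5a (Entrez Gene 107448, chr13:54945151-55006018) was at 68.0, 76.7 and 77.6 CPM in WT and 53.9, 54.5 and 66.7 CPM in KD. KD replicate 3 was just below WT replicate 1, the nearest libraries of the groups, and the log2 fold change was -0.34 ± 0.09 (SE; adjusted p = 0.0261). Its exons overlap those of Hk3 on the opposite strand, and it lost its call without WT replicate 2 or 3 or KD replicate 1 or 2 (-0.45 to -0.29 over all 6). Unc5d, a marker of upper-layer neurons, had 60.6 ± 6.99 CPM in WT and 73.0 ± 10.2 CPM in KD. It did not pass without the block (adjusted p = 0.116), was higher with it (adjusted p = 0.0127) and was called without KD replicate 3, at 0.38. Unc5b and Unc5c did not pass, with log2 fold changes of -0.03 and 0.03. Ntn4, with 12.1 ± 2.22 CPM in WT and 16.49 ± 2.38 CPM in KD, was higher with the block (adjusted p = 0.00143; 0.0601 without it) and was called by DESeq2 and without WT replicate 1, at 0.61. Ntn3, with 9.54 ± 0.960 CPM in WT and 7.47 ± 0.664 CPM in KD, was lower with the block (adjusted p = 0.0325; 0.0723 without it), and it shares exon sequence with Tbc1d24 on the same strand.

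Set side by side, without a test of the differences between them, the families had these medians of the log2 fold change: 0.31 for Robos, 0.28 for netrins, 0.25 for Slits, 0.18 for neuropilins, 0.11 for plexins, 0.07 for ephrins, 0.06 for Eph receptors, 0.04 for semaphorins and 0.03 for Unc5 and Dcc receptors. The medians of the smaller families rest on 2 or 3 genes, and those of Robos and netrins reached -0.02 and -0.06 without KD replicate 1. Receptors had 8 rises and 4 falls of 31 tested (12 and 6 with the block) and ligands 7 and 3 of 33 (13 and 8 with the block). Without the block that is 25.8% and 12.9% of receptors and 21.2% and 9.1% of ligands, where the background was 12.0% and 11.9%, so the share of falls lay near the background in both; with the block the background was 18.6% and 18.1%. The summed level went from 1085 ± 48.7 to 1217 ± 37.2 TPM for receptors and from 1162 ± 45.7 to 1196 ± 42.8 TPM for ligands. In the receptor sum, Epha3 and Epha4 added 35.2 TPM and Plxna2 and Plxna4 added 59.7 TPM, pairs picked after their values were seen. The median log2 fold change was lower for receptors, at 0.06, than for ligands, at 0.13. Eph receptors summed to 308 ± 14.7 TPM in WT and 359 ± 11.3 TPM in KD, and plexins to 505 ± 42.5 and 574 ± 23.9 TPM. In the first, all KD libraries were above all WT libraries. The Slits shared that separation, and so did the plexins by a narrow margin, with 553.0 TPM in WT replicate 3 and 556.6 TPM in KD replicate 1. The ephrins, at 529 ± 18.7 and 507 ± 28.5 TPM, overlapped. In the TPM fits the median of all genes lay about 0.05 above 0 on the log2 scale, and the sums were not corrected for this. How often other gene families separate in this way was not computed.

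**Figure D3:**
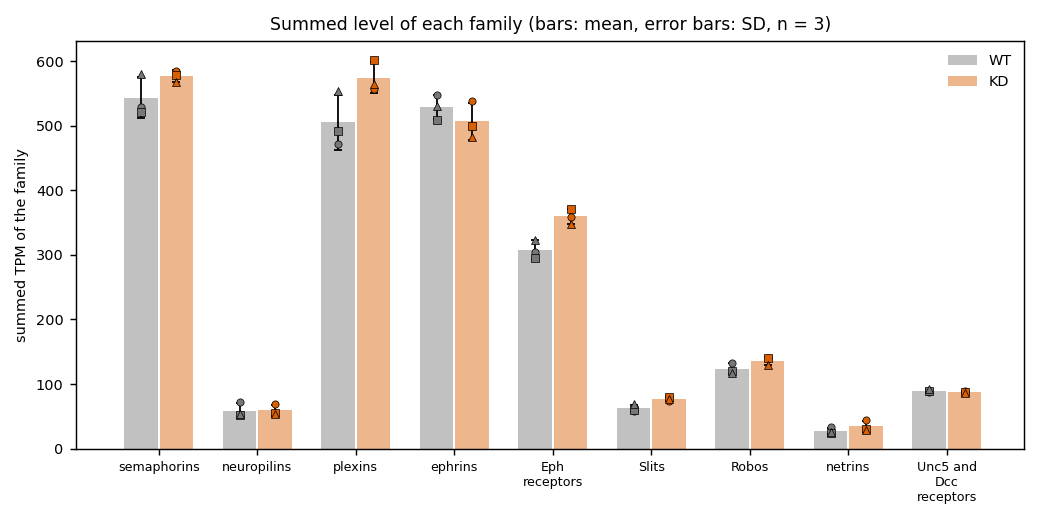
Summed TPM of each family (vertical axis) in WT (grey) and KD (orange); bars are means, error bars SD with n = 3, and circles, squares and triangles are replicates 1, 2 and 3. Eph receptors and Slits are higher in every KD library than in any WT library, and ephrins overlap between the groups.

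The pairs did not contribute evenly. The median log2 ratio over the 64 genes was 0.14 in pair 1, 0.13 in pair 2 and 0.01 in pair 3, and KD replicate 3 was also the library that kept the most Ybx1. For semaphorins the medians were 0.12, 0.06 and -0.14, for ephrins 0.24, -0.10 and 0.01, and for Slits 0.14, 0.32 and 0.22. Whether the smaller ratios of pair 3 go with its Ybx1 level was not tested.

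**Figure D4:**
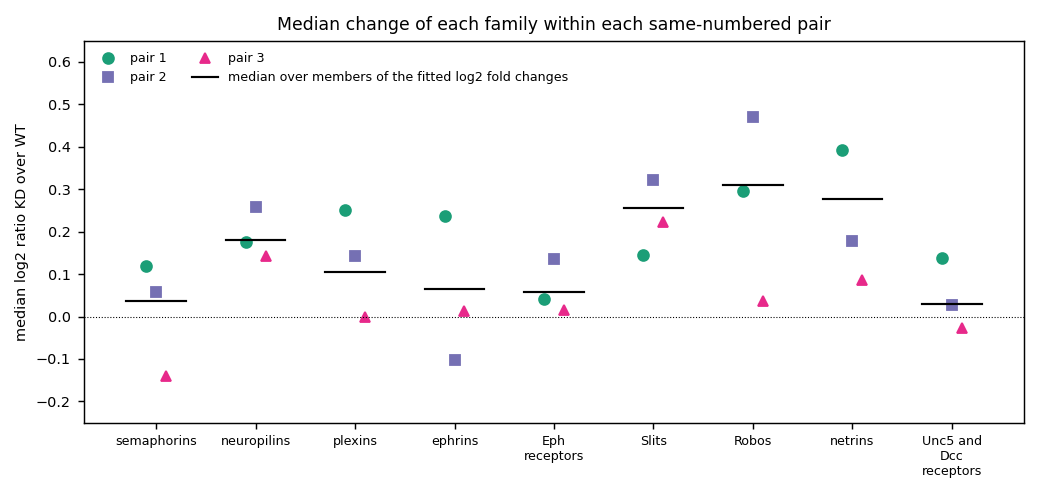
Median log2 ratio of KD over WT (vertical axis) over the tested genes of each family within same-numbered pairs of libraries; circles, squares and triangles are pairs 1, 2 and 3 and black lines are medians of the fitted log2 fold changes. Pair 3 lies lowest in 7 of the 9 families and below 0 in semaphorins and in Unc5 and Dcc receptors.

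Other genes of the pathway, a list of 82 co-receptors, adhesion molecules, adaptors and cytoskeletal effectors, had 13 rises and 13 falls, or 15.9% each way, where the background was 12.0% and 11.9%. With the block there were 24 and 22, where the background was 18.6% and 18.1%. The median log2 fold change was 0.02. The largest rises were in Ntng2, a membrane-anchored netrin relative, from 38.2 ± 4.75 to 73.4 ± 4.56 CPM (log2 fold change 0.94), Vav3 from 7.45 ± 0.43 to 12.7 ± 0.70 CPM (0.77), and Boc, a Shh receptor in axon guidance, from 19.6 ± 1.69 to 32.6 ± 0.62 CPM (0.74). The largest falls were in Ablim3, an actin-binding protein, from 185 ± 21.4 to 120 ± 12.7 CPM (-0.62), Dpysl4, of the collapsin response mediator family that acts below semaphorins, from 116 ± 2.603 to 81.5 ± 3.58 CPM (-0.50), and the adhesion molecule Chl1, from 489 ± 51.3 to 355 ± 49.4 CPM (-0.46). The adjusted p values of these 6 genes lay between 0.00049 and 0.0146.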

How the data were processed

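RNA was extracted with Trizol, and mRNA libraries were sequenced on the DNBSEQ platform. The submitters' processing notes name HISAT2 2.2.1, Bowtie2 2.4.5, RSEM 1.3.1 and GRCm38 (mm10), without roles; the annotation and strandedness are not given in the sources used here. The deposited table, made by the authors, held estimated counts per gene, with fractions where reads were divided between genes, and TPM scaled by the authors to 1000000 per library. FPKM values of the same libraries, computed by the authors, and group averages made up the other 12 columns and were not used. Among the guidance genes, Epha10, Epha5, Plxnb1 and Sema4d had fractional counts.

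Estimated counts were rounded and tested with edgeR 4.0.16 (R 4.3.3): TMM scaling, filterByExpr with a minimum count of 10, and the quasi-likelihood test of KD against WT, two-sided, with Benjamini-Hochberg adjustment over 13669 genes and a threshold of 0.05. SE was taken as |log2 fold change| over √F. Errors on CPM and TPM are SD, with n = 3 libraries per group. The between-library coefficient of variation was 7.69%. The steps were tested on simulated data. Replicates of a group differed by more than sampling noise, so all 6 libraries were counted.

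Groups and replicate numbers came from sample titles, and each Ctrl column was assigned to the WT title of the same number. Deviations from the group means correlated at 0.351, 0.320 and 0.178 over genes between same-numbered libraries and at -0.276 to -0.018 between others. Deviations cancel out within a group, so the negative values follow from the positive ones and are not separate evidence. The libraries were read as paired on the positive values. What a number stands for is not in the labels, and the series text speaks of 3 batches over biological replicates. The fit without the block stayed the principal one, with a coefficient of variation of 4.71% under the block. The SE, intervals and adjusted p values are from the fit without the block unless another fit is named, and so leave the pairing out. Start regions and gene positions are from RefSeq (GRCm38.p6), and exon overlaps from GENCODE vM21.

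The genes named were those past the threshold, the most abundant of each family, a list set by name, those whose call the block changed, and the 3 largest rises and falls of the pathway list. Members and lists were chosen with earlier results of these data known. Alternatives were other scalings (DESeq2 size factors, upper quartile, total count), no filter or a mean of at least 1 CPM, DESeq2 1.42.0, limma-voom and limma-trend on log2(TPM + 1) and log2(TPM + 0.1) (limma 3.58.1), the block, stricter thresholds and leaving out libraries.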

Additional observations from a re-analysis of the deposited data

How the results depend on the processing

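Of the 22 called guidance genes, 17 kept their call under all 10 alternatives that left out no library; Epha10, Plxna1, Sema5a, Sema6b and Slit2 did not. Without single libraries 8 kept their call throughout (Epha3, Epha4, Epha8, Efnb3, Nrp1, Plxna2, Plxna4 and Sema5b), and no gene was called in the opposite direction. With the replicate block, 25 guidance genes were higher and 14 lower, and 24 and 22 of the other pathway genes, whose counts without it were 13 and 13; among the guidance genes it changed no call other than those named above. Both TPM fits called 4 lower. At an adjusted p of 0.01 the counts were 6 higher and 2 lower, and with a 1.5-fold change 4 and 0. Without both replicate 2 libraries, a setting added after the data were seen, they were 2 and 0, and 3 and 1 for the pathway. Without single libraries, guidance counts ranged from 6 to 16 higher and from 2 to 6 lower (lowest without either replicate 2 library and without KD replicate 1), and pathway counts from 7 to 19 higher and from 7 to 13 lower. Without single libraries, the share of all genes called higher also varied, from 5.65% without WT replicate 2 to 11.7% without WT replicate 3. Why these counts differ between settings was not tested.

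With no filter, which adds genes of a few counts, the median log2 fold change was 0.058 for Robos and -0.032 for netrins, and with TPM + 0.1 it was 0.246 for neuropilins. Without single libraries these medians ranged from -0.016 to 0.397 for Robos, from -0.059 to 0.466 for netrins and from 0.099 to 0.270 for neuropilins. Some uncalled genes changed sign. Ephb2 was at 0.009 with total count scaling, 0.036 with TPM + 1 and 0.037 with TPM + 0.1, and Plxnd1 was at 0.025 in both TPM fits. Without both replicate 2 libraries, Ephb1 was at -0.004 and Plxnd1 at 0.006. Without single libraries the ranges were -0.042 to 0.15 for Ephb1, -0.041 to 0.024 for Ephb2, -0.144 to 0.076 for Plxnd1, -0.059 to 0.466 for Ntn1 and -0.027 to 0.173 for Sema3a. Depth limits the genes under about 10 CPM, such as Plxnb3, Robo3, Sema3b and Efna1, whose SE reached 0.21 to 0.39.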
